A study of Homo sapiens with 6 samples.

Results

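The EGF family joins secreted or membrane-tethered ligands to 4 receptor tyrosine kinases, and 10 of its genes are described here: the receptor genes Egfr, Erbb2 and Erbb4 and the ligand genes Tgfa, Hbegf, Areg, Ereg, Btc, Nrg1 and Nrg4. They were chosen by symbol, and all 10 had a row among the 38986 gene symbols of each file. RNA was sequenced from 6 libraries in 2 groups, 3 labelled stat6 with the genotype STAT6 overexpression and 3 labelled Mock with the genotype WT. The labels describe both groups as the same human embryonic kidney cell line in the same medium, and the series describes the cells of both as mCherry-positive. The question named for the comparison was the role of STAT6, a transcription factor downstream of the interleukin 4 receptor, in mitochondrial gene expression. No label says whether the numbered libraries stem from separate cultures, and the p-values therefore reflect variation among these 6 libraries that may be purely technical.

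In this family each ligand is made as a membrane-anchored precursor, which metalloproteases of the ADAM family can cut to release the active EGF-like domain. TGF-alpha, amphiregulin and EGF bind EGFR, whereas HB-EGF, betacellulin and epiregulin bind both EGFR and ERBB4, and the neuregulins bind ERBB3 or ERBB4. ERBB2 has no known ligand of its own and ERBB3 has little kinase activity, so both act mainly as partners in receptor pairs. Active receptors recruit adaptors such as GRB2 and SHC and turn on the RAS-ERK and PI3K routes. Neuregulins and ERBB3 take part in the development of the neural crest and its pigment cells.

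The labels and the files do not go together in organism or in cell type. Of the symbols, 17 equalled a human symbol in the same case and 16671 did so only in capitals, so the table uses mouse symbols, and it has 0 rows named STAT6 in capitals. The 6 markers of kidney epithelium summed to between 0.0432 and 0.147 counts per 1000000 (CPM) in the libraries labelled STAT6 and were at 0 in Mock-labelled libraries. The 7 pigment cell markers summed to between 16705 and 16841 CPM in the libraries labelled STAT6, against 14404 to 14750 CPM in Mock-labelled libraries. Mouse Stat6 had 35.1, 33.6 and 32.1 CPM in the libraries labelled STAT6, against 95.2, 95.5 and 92.8 CPM in Mock-labelled libraries. Stat6 was therefore lower where the label says overexpression (log2 fold change -1.49, edgeR adjusted p = 7.47e-26), and a human transgene would have no row here. Groups below are named by their labels alone, and each direction depends on them. Library totals ran from 19894773 to 29802693 counts.

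The main result was a rise in Tgfa and Hbegf, the only ligand genes among the members with enough counts to test. Tgfa, the gene of transforming growth factor alpha, was 15.5-fold higher in the libraries labelled STAT6, and Hbegf, the gene of heparin-binding EGF-like growth factor, was 2.64-fold higher. Erbb2 did not pass the test, and the other 7 members had at most 6 counts in any library. Areg and Ereg had 0 counts in all 6 libraries.

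**Figure D1:**
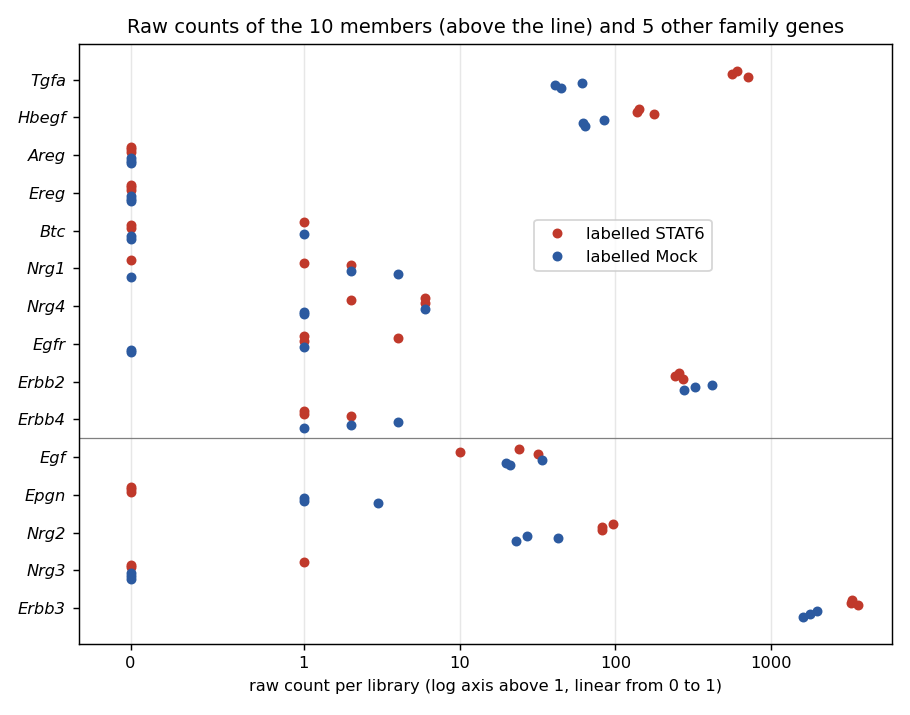
Raw counts per library (x, log above 1 and linear from 0 to 1) for the 10 members above the line and 5 other family genes below it, with 3 libraries labelled STAT6 in red and 3 labelled Mock in blue. Of the members, Tgfa, Hbegf and Erbb2 lie above 40 counts in every library and the other 7 lie at 6 counts or below.

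Tgfa had 708, 564 and 606 counts in the libraries labelled STAT6, against 45, 41 and 61 counts in Mock-labelled libraries. Scaled to the effective library size (TMM), this was 30.6, 29.1 and 29.7 CPM in the libraries labelled STAT6 and 1.95, 1.77 and 1.99 CPM in Mock-labelled libraries. The groups did not overlap, and the gap between them was many times the spread within either. The log2 fold change was 3.96 (SE 0.10, 95% interval 3.76 to 4.15, edgeR adjusted p = 9.41e-29). Of all 12938 genes tested, 1.17% had a log2 fold change at least as high. Each of the 3 libraries labelled STAT6 was above every Mock-labelled library.

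Hbegf had 177, 137 and 142 counts in the libraries labelled STAT6, against 64, 62 and 84 counts in Mock-labelled libraries. In CPM it stood at 7.64, 7.06 and 6.96 in the libraries labelled STAT6 and at 2.78, 2.67 and 2.75 in Mock-labelled libraries. The groups did not overlap here either. The log2 fold change was 1.40 (SE 0.14, 95% interval 1.13 to 1.68, edgeR adjusted p = 2.57e-11).

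Both ligands rose, but by different amounts. Within a library, the ratio of Tgfa counts to Hbegf counts does not depend on how libraries are scaled, and its change between groups does not depend on gene length. The ratio was 4.13 ± 0.134 in the libraries labelled STAT6 and 0.697 ± 0.0329 in Mock-labelled libraries (SD, n = 3 each), a 5.92-fold change. The groups did not overlap, and the exact permutation test (2-sided) gave p = 0.1, the smallest that 20 assignments of the libraries allow (adjusted p = 0.1 over the 2 ratios computed, both chosen after the values were seen).

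**Figure D2:**
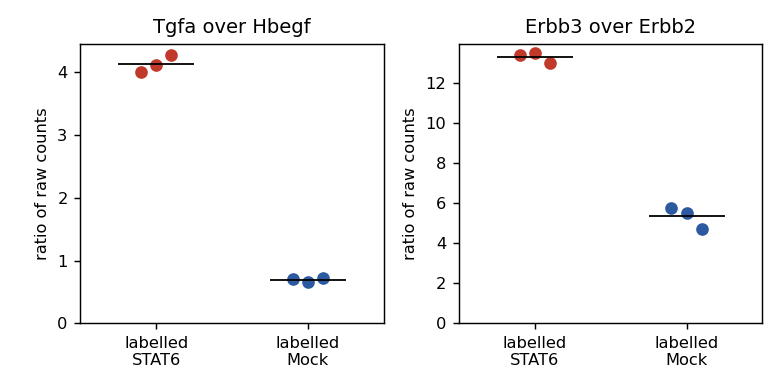
Ratio of raw counts within each library (y, linear from 0) for Tgfa over Hbegf and Erbb3 over Erbb2, with the libraries labelled STAT6 on the left, those labelled Mock on the right and a line at the mean of 3. Tgfa over Hbegf averages 4.13 against 0.697 and Erbb3 over Erbb2 averages 13.3 against 5.34, with no overlap in either panel.

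Of the receptor genes, Erbb2 alone was measured with more than a few counts. It had 270, 243 and 255 counts in the libraries labelled STAT6, against 277, 322 and 417 counts in Mock-labelled libraries. In CPM this was 11.7, 12.5 and 12.5 in the libraries labelled STAT6 and 12.0, 13.9 and 13.6 in Mock-labelled libraries, so the groups overlapped. The log2 fold change of -0.11 (SE 0.08, edgeR adjusted p = 0.213) did not pass, and its 95% interval of -0.28 to 0.05 leaves room for a small change either way. Scaled to library totals alone, Erbb2 was called lower (log2 fold change -0.19, adjusted p = 0.039).

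Egfr, the receptor of TGF-alpha and HB-EGF, was near the limit of detection in both groups. It had 1, 4 and 1 counts in the libraries labelled STAT6, against 0, 0 and 1 counts in Mock-labelled libraries. The ratio of the group rates was 7.32, with a 95% counting interval of 0.888 to 337 that includes no difference. In CPM the groups did not overlap (0.0432, 0.206 and 0.0490 labelled STAT6, against 0, 0 and 0.0327 labelled Mock), although counts of 1 occurred in both. The exact permutation test (2-sided) gave p = 0.1, the smallest that 20 assignments of the libraries allow, so it cannot decide. Erbb4, a receptor of neuregulins and HB-EGF, had 2, 1 and 1 counts in the libraries labelled STAT6 and 1, 2 and 4 counts in Mock-labelled libraries. Its ratio of 0.697 had an interval of 0.150 to 2.74, and the groups overlapped.

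The remaining ligands of the list were at or near 0. Areg, the gene of amphiregulin, and Ereg, the gene of epiregulin, had 0 counts in each library, which allows up to 0.0464 CPM over the libraries labelled STAT6 and 0.04 CPM over Mock-labelled libraries (3 counts of each group's total). Btc, the gene of betacellulin, had 1 count in each group. Nrg1, the gene of neuregulin 1, had 2, 1 and 0 counts in the libraries labelled STAT6 and 0, 4 and 2 counts in Mock-labelled libraries (ratio 0.610, 95% counting interval 0.0987 to 2.86). Nrg4, a neuregulin that binds ERBB4, had 6, 2 and 6 counts in the libraries labelled STAT6 and 1, 1 and 6 counts in Mock-labelled libraries. Its ratio of 2.13 had an interval of 0.836 to 5.87, so a difference was not detectable at this depth. These intervals and floors cover counting error only.

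Among the 10 members, 3 passed the filter on low counts, each with at least 41 counts in every library. Of these 3, 2 were called higher and 0 lower by edgeR at an adjusted p under 0.05, and 0 were lower at an unadjusted p under 0.05 or with DESeq2. Over all tested genes 72.6% were called, 35.8% higher and 36.8% lower, so this count by itself does not set the members apart. Changes of at least 2-fold were rarer, and 10.6% of tested genes were called with such a rise and 4.96% with such a fall. Both Tgfa and Hbegf were among them, and both also passed a test for a change beyond 1.5-fold (glmTreat), as 21.5% of tested genes did in either direction and 14.0% as higher. Their groups did not overlap, as was the case for 74.6% of tested genes.

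The 5 other genes of the family gave the partners of these members. Erbb3, the receptor gene that pairs with Erbb2, had 156, 169 and 162 CPM in the libraries labelled STAT6, against 69.5, 76.7 and 64.0 CPM in Mock-labelled libraries. The groups did not overlap, and Erbb3 rose 2.32-fold (log2 fold change 1.22, SE 0.05, edgeR adjusted p = 5.12e-12). The ratio of Erbb3 counts to Erbb2 counts was 13.3 ± 0.247 in the libraries labelled STAT6 and 5.34 ± 0.569 in Mock-labelled libraries (SD, n = 3 each), a 2.49-fold change with no overlap (exact permutation test, 2-sided, p = 0.1, the smallest possible).

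Nrg2, the gene of neuregulin 2, had 3.54, 4.23 and 4.75 CPM in the libraries labelled STAT6, against 0.998, 1.85 and 0.883 CPM in Mock-labelled libraries. It rose 3.40-fold (log2 fold change 1.76, SE 0.22, edgeR adjusted p = 1.8e-08), with no overlap. Egf had 1.38, 0.515 and 1.18 CPM in the libraries labelled STAT6 and 0.911, 0.862 and 1.11 CPM in Mock-labelled libraries. Its libraries overlapped and it did not pass (log2 fold change 0.10, 95% interval -0.51 to 0.71, edgeR adjusted p = 0.775). Without STAT6 replicate 1 the sign of Egf turned (log2 fold change -0.19, adjusted p = 0.657). Epgn, the gene of epigen, had 0 counts in the libraries labelled STAT6 and 3, 1 and 1 counts in Mock-labelled libraries. Nrg3, the gene of neuregulin 3, had 1 count in all.

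**Figure D3:**
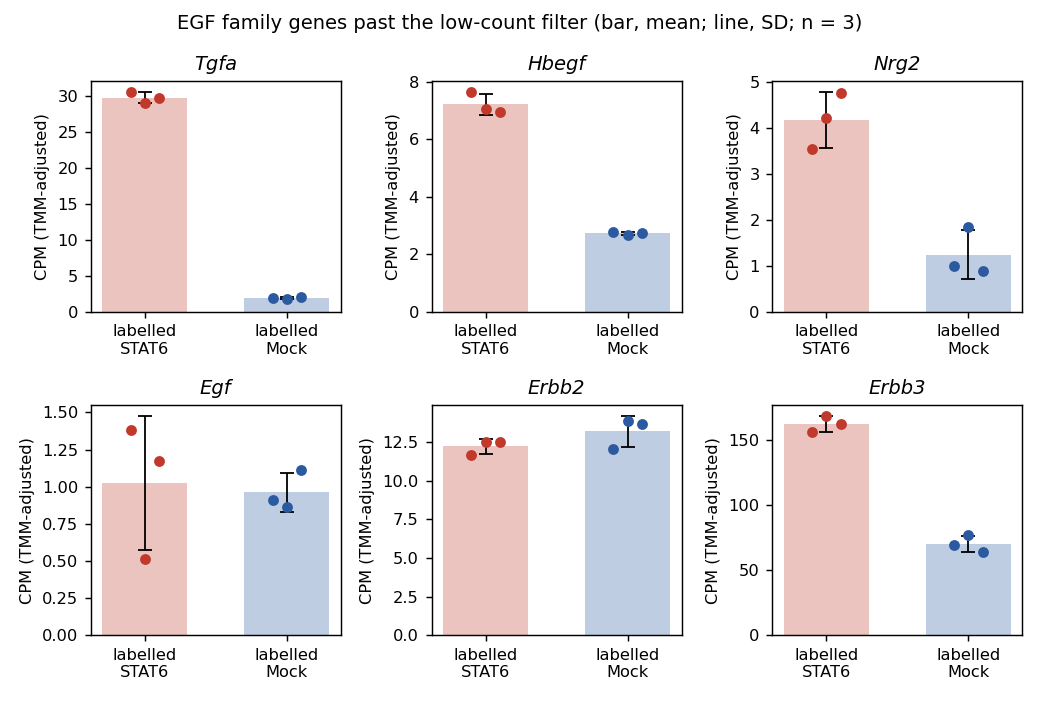
Level of the 6 family genes past the low-count filter in CPM scaled to the TMM-adjusted library size (y, linear from 0), with bars for the mean, lines for the SD and points for the 3 libraries of each label. Tgfa, Hbegf, Nrg2 and Erbb3 are higher in the libraries labelled STAT6 without overlap, while Egf and Erbb2 overlap.

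Several markers of other cell types moved with the groups. Of 3 Schwann cell markers, S100b had 495 ± 5.12 CPM in the libraries labelled STAT6 and 90.9 ± 4.78 CPM in Mock-labelled libraries (SD, n = 3 each). The summed level of the list ran from 489 to 499 CPM in the libraries labelled STAT6 and from 86.7 to 96.1 CPM in Mock-labelled libraries, with Gfra3 at 0 in each. Of 5 fibroblast markers, Col1a1 had 78.7 ± 3.14 CPM in the libraries labelled STAT6 and 4.85 ± 0.421 CPM in Mock-labelled libraries, and the whole list summed to between 76.5 and 82.8 CPM against 5.60 to 6.55 CPM. Dcn and Lum, also on this list, had 0 counts in the libraries labelled STAT6 and 1 count each in Mock-labelled libraries. The 4 keratinocyte markers summed to between 3.56 and 4.85 CPM in the libraries labelled STAT6 and between 1.01 and 2.63 CPM in Mock-labelled libraries. The 4 endothelial markers summed to between 0.441 and 0.979 CPM in the libraries labelled STAT6 and between 0.0431 and 0.229 CPM in Mock-labelled libraries. Most of this was Pecam1, at 18, 18 and 9 counts in the libraries labelled STAT6 and 1, 0 and 7 in Mock-labelled libraries. Kdr had 1 count in STAT6 replicate 2 alone, Tie1 had 1 count in Mock replicate 2 alone, and Cdh5 was at 0 in each. The 4 leukocyte markers reached at most 0.103 CPM in the libraries labelled STAT6 and 0.0434 CPM in Mock-labelled libraries, with Cd3e and Adgre1 at 0 in each. Of the 7 pigment cell markers 4 were called higher and 2 lower, where 72.6% of all tested genes were called, with the tyrosinase gene Tyr at a log2 fold change of -3.38. The other lower marker, Pmel, was at -0.06 (edgeR adjusted p = 0.0488) and its groups overlapped. The 4 higher markers ran from 0.09 (Tyrp1) to 0.54 (Dct). The part of these differences in the levels of Tgfa, Hbegf, Nrg2 and Erbb3 was not tested, and in bulk RNA more cells of a type and more RNA per cell cannot be told apart.

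The 13 genes listed for ligand shedding are proteases that release the ligands, cofactors of these and Timp3, an inhibitor of the proteases. All were tested, and 8 were higher, 1 was lower and 4, Timp3 among them, were not called. Over all tested genes 72.6% were called, 35.8% higher and 36.8% lower, so the total called was near the background. The median log2 fold change was 0.52, against -0.00 over all tested genes. Adam10, a protease that releases EGF and betacellulin, had 352 ± 4.30 CPM in the libraries labelled STAT6 and 183 ± 3.74 CPM in Mock-labelled libraries (SD, n = 3 each; log2 fold change 0.95, edgeR adjusted p = 1.45e-24). Adam17, the main protease for TGF-alpha, HB-EGF and amphiregulin, had 87.3 ± 0.308 CPM in the libraries labelled STAT6 and 82.5 ± 2.41 CPM in Mock-labelled libraries and did not pass (log2 fold change 0.08, edgeR adjusted p = 0.0531), but it passed with DESeq2 size factors (0.0471), with limma-voom (0.0484) and without Mock replicate 1 (0.0349). Of its cofactors, Rhbdf1, an iRhom that carries ADAM17 to the surface (log2 fold change 1.11), and Frmd8, which stabilises that complex (0.68), were called higher. The other iRhom gene, Rhbdf2, had 16.2 ± 1.61 CPM in the libraries labelled STAT6 and 16.0 ± 0.211 CPM in Mock-labelled libraries (SD, n = 3 each) and was not called (log2 fold change 0.02, edgeR adjusted p = 0.857). Bace1, a protease that cuts neuregulin 1, was also higher (1.00).

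Of this list, Adam17, Rhbdf2 and Timp3 above and the pair of genes at either end of its range were named after their values were seen. Rhbdl2, a rhomboid protease that can release EGF, rose by a log2 fold change of 2.70. Adam12, a protease that can release HB-EGF, had 0.130, 0.309 and 0.196 CPM in the libraries labelled STAT6, against 3.51, 3.92 and 3.47 CPM in Mock-labelled libraries. Adam12 was the one listed gene called lower (log2 fold change -4.10, SE 0.29, edgeR adjusted p = 8.51e-15).

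Genes that restrain or turn over the receptors did not move one way. Of 13 listed, 12 were tested, of which 5 were higher, 3 lower and 4 not called, with a median log2 fold change of 0.04. Over all tested genes 72.6% were called, 35.8% higher and 36.8% lower. The total called here was near that background. Lrig1, a membrane protein that promotes degradation of EGF family receptors, had 3.50, 3.97 and 3.38 CPM in the libraries labelled STAT6, against 0.130, 0.474 and 0.229 CPM in Mock-labelled libraries. It rose 13.0-fold (log2 fold change 3.70, SE 0.29, edgeR adjusted p = 7.44e-14). Socs4 (log2 fold change 0.54) and Socs5 (0.35), adaptors that promote degradation of EGFR, were called higher. Sh3kbp1, a partner of CBL in receptor endocytosis, was lower (log2 fold change -0.96, edgeR adjusted p = 3.69e-14). The other genes called lower were Lrig2 (-0.17) and Cblb (-0.22), named after their values were seen. Both calls were lost with DESeq2 (adjusted p = 0.0653 for Lrig2 and 0.0641 for Cblb) and without STAT6 replicate 2 (0.0572 and 0.0682). Lrig2 was also lost without STAT6 replicate 1 (0.0775) or Mock replicate 1 (0.0607), and Cblb without STAT6 replicate 3 (0.0528) or Mock replicate 2 (0.0885). Errfi1, which binds and blocks the EGFR kinase and was also named after its value was seen, did not pass (log2 fold change 0.11, adjusted p = 0.177).

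Adaptors and effectors that bind the active receptors were called about as often as other genes. Of 24 listed, 21 were tested, of which 5 were higher, 10 lower and 6 not called, with log2 fold changes running from -0.91 to 0.70 around a median of -0.07, so none changed as much as 2-fold. Over all tested genes 72.6% were called, 35.8% higher and 36.8% lower. Eps8, a substrate of EGFR that links it to actin, had 483 ± 5.11 CPM in the libraries labelled STAT6 and 908 ± 5.90 CPM in Mock-labelled libraries (SD, n = 3 each; log2 fold change -0.91, edgeR adjusted p = 8.87e-26). Shc4, an adaptor of the SHC group (-0.75), and Plcg1, a phospholipase C (-0.80), were lower as well. Ptpn11, the phosphatase SHP2 that carries receptor signals to RAS, was higher (0.59). The core adaptors Grb2 (0.04, adjusted p = 0.451) and Shc1 (-0.04, adjusted p = 0.371), named after their values were seen, were not called, but with library totals alone Grb2 stood at -0.04 (adjusted p = 0.498) and Shc1 was called lower (-0.12, adjusted p = 0.0162).

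Of 16 listed genes that ERK signalling is known to induce, 14 were tested, of which 10 were higher, 2 lower and 2 not called, the median log2 fold change being 0.65, and 6 of the rises were at least 2-fold. Over all tested genes 72.6% were called, 35.8% higher and 36.8% lower, and 10.6% were called with a rise of at least 2-fold. The list as a whole was not tested. Etv5, an ETS transcription factor, had 37.7 ± 1.07 CPM in the libraries labelled STAT6 and 10.1 ± 0.922 CPM in Mock-labelled libraries (SD, n = 3 each; log2 fold change 1.91, edgeR adjusted p = 1.44e-23). Egr1, an immediate early factor (2.49), Spry2, a feedback inhibitor of RAS-ERK signalling (1.31), and Dusp4, a phosphatase of ERK (0.66), rose too. The lower genes were Spry1 (-0.93) and Spred2 (-0.20), both feedback inhibitors, named after their values were seen. So were the 2 untested genes, Fosl1 and Dusp5. Fosl1 had 6, 10 and 10 counts in the libraries labelled STAT6 and 0 counts in each Mock-labelled library. Dusp5 had 1, 1 and 5 counts in the libraries labelled STAT6 and 1, 0 and 3 counts in Mock-labelled libraries. The activity of ERK itself was not measured.

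**Figure D4:**
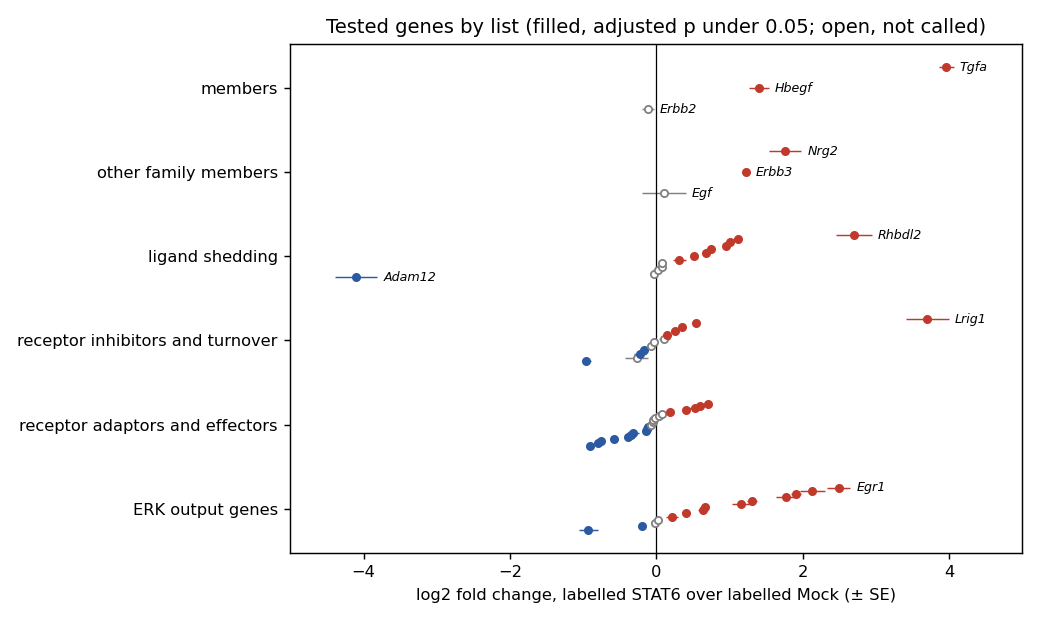
Log2 fold change of each tested gene, libraries labelled STAT6 over Mock-labelled libraries (x, with SE as lines), by list (rows), red where called higher, blue where called lower and open where not called. Tgfa at 3.96 and Lrig1 at 3.70 lie highest, Adam12 at -4.10 lies lowest, and the adaptors stay between -0.91 and 0.70.

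Over the 6 libraries together Tgfa had the highest mean CPM among the members, although in Mock-labelled libraries it stood below Erbb2 and Hbegf, and these values are not corrected for gene length. Its profile was compared with those of 11005 other genes with a mean of at least 2 CPM. By the root mean square difference of centred log2(CPM + 0.5) over the 6 libraries, the nearest genes were Chadl (0.036), Plat (0.038) and Adamtsl5 (0.085). The edgeR log2 fold change was 4.52 for Chadl, 3.96 for Plat and 3.75 for Adamtsl5, against 3.96 for Tgfa. Chadl had only 0.521, 0.517 and 0.589 CPM in Mock-labelled libraries, so the added 0.5 CPM narrowed its gap to Tgfa. Plat had 29.6, 29.9 and 28.9 CPM in the libraries labelled STAT6, against 1.95, 1.81 and 1.90 CPM in Mock-labelled libraries. This likeness mostly follows the difference between the groups, since the 6 libraries form 2 groups.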

How the data were processed

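RNA was measured by RNA-seq of polyadenylated RNA with a stranded kit, per the labels' protocols. The authors deposited 1 whole-number raw count per gene symbol and library. FastQC, STAR, Salmon and edgeR, with no versions, and the build GRCh37 are listed in the submitters' processing notes. The counting step is not given in the sources used here.

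Counts were analysed with edgeR 4.0.16 in R 4.3.3: filterByExpr by group (12938 genes kept), TMM factors, the robust quasi-likelihood test, 2-sided, a design of group alone, and Benjamini-Hochberg adjustment across the tested genes (threshold 0.05). The SE is the log2 fold change divided by the square root of F. CPM are counts per 1000000 of the TMM-adjusted total. Ratios of low counts have exact conditional 95% intervals. Within groups, the median chi-square of 2 libraries was 1.44 to 2.50 times counting noise, so none was a copy.

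The named genes are all members and other family genes, up to 4 per pathway list by adjusted p, Stat6, and the 3 profiles nearest to the most abundant member. Members and lists were chosen with earlier results of these data known. Alternatives used DESeq2 1.42.0 (size factors and test), limma-voom 3.58.1, library totals, no filter, glmTreat, the replicate number as a block, and each library left out. A marker of the cell type lists is not reported here.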

Additional observations from a re-analysis of the deposited data

How the results depend on the processing

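The 2 calls among the members, Tgfa and Hbegf, held under all 13 alternatives, with log2 fold changes of 3.88 to 3.99 for Tgfa and 1.33 to 1.42 for Hbegf. Library totals alone added Erbb2 as lower (-0.19, adjusted p = 0.039, with adjusted p up to 1 elsewhere), so 3 members were called. The calls of Erbb3 and Nrg2 held as well. Egf, not called, ranged from -0.19 (without STAT6 replicate 1) to 0.40 (without STAT6 replicate 2). With glmTreat, which asks for a change beyond 1.5-fold, 2779 of all genes were called (1807 higher, 972 lower) against 9399 (4638 higher, 4761 lower), and 21 genes of the 4 pathway lists against 44. There Socs4 (0.54), Socs5 (0.35), Ptpn11 (0.59), Spred2, Lrig2 and Cblb were no longer called. The glmTreat counts were 1 higher and 1 lower for receptor inhibitors (5 and 3 in the main test) and 1 and 3 for adaptors (5 and 10). For ERK output genes they were 7 higher and 1 lower (10 and 2). Library totals alone gave 5 lower receptor inhibitors and 2 lower shedding genes (1), while DESeq2 and leaving out STAT6 replicate 2 each gave 1 lower receptor inhibitor, Lrig2 and Cblb being lost. Rhbdf2, not called, turned to -0.06 with library totals, -0.00 with no filter and -0.07 without STAT6 replicate 1 (up to 0.08 without STAT6 replicate 2), and Grb2, not called, to -0.04 with library totals. With each library left out in turn, 9042 to 9476 genes and 41 to 47 pathway genes were called.

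Same-numbered libraries deviated together only weakly (r = 0.052, 0.10 and 0.031 for numbers 1 to 3). Yet 5 of 6 libraries correlated best with their own number, so these values do not decide whether the numbers are pairs. The main test did not treat them as pairs. With the replicate number as a block, 2 members, 9422 genes and 44 pathway genes were called. Depth limits Egfr, Erbb4, Btc, Nrg1 and Nrg4, with 2 to 22 counts each over all libraries.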
